A study of Mus musculus with 16 samples.

Results

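H3K27Ac, an acetylation of histone H3 found at active promoters and enhancers, was mapped by chromatin immunoprecipitation and sequencing (ChIP-seq) in mouse embryonic stem (ES) cells, together with H3K4Me1 and H3K27Me3. The stretches described here were chosen by 3 measured properties, which are therefore no findings. They carried H3K27Ac in both the female (XX) and the male (XY) list, lay over 5 kb from any protein-coding transcription start site (TSS), and overlapped no H3K4Me1 region of either list. To find them, the H3K27Ac regions of both lists were merged where they overlapped on chromosomes 1 to 19 of mm9. Of 29351 merged stretches, 21475 were acetylated in both lists, 10690 of those were distal, and 3414 of the distal ones (31.9%, exact binomial 95% interval 31.1 to 32.8%) met the rule. The other 7276 distal stretches in both lists carried H3K4Me1 and served as the main comparison. A second comparison was made with 647 stretches in both lists that lacked H3K4Me1 but lay within 5 kb of a TSS.

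The XX group held 2 lines, BCF3 and BCF4, and the XY group held 2 lines, BCM1 and BCM2, each profiled for all 3 marks, with 1 IgG and 1 input library per sex. All were low-passage lines from independent F1 hybrid blastocysts of C57BL/6 and CAST/EiJ mice, grown in serum and LIF, a cytokine that keeps ES cells undifferentiated, on inactivated C57BL/6 embryonic fibroblasts pooled from both sexes, most of which were depleted before harvest. The strain label carries a number that differs in every library. Each sex and mark has 1 list of coordinates, named for the sex and not for a line, without a count or a score, and how the lines entered it is not stated. There were therefore no replicates, no depth per library and no test between the sexes, and the binomial intervals given here cover counting error only. The XX lists held 28784 H3K27Ac, 39404 H3K4Me1 and 18534 H3K27Me3 regions, and the XY lists 26100, 34800 and 15138. H3K27Ac lay within 2 kb of a TSS of all 8 ES cell markers examined, among them Pou5f1, Nanog and Zfp42, in both lists. Of 8 fibroblast markers, 0 had H3K27Ac there in the XX list and 2, Col1a1 and Twist1, in the XY list, and the part of feeder cells in the results was not tested.

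Enhancers are usually marked by H3K4Me1, which is laid down by the Mll3 and Mll4 methyltransferases, and gain H3K27Ac from the acetyltransferases p300 and CBP when they are active. Active promoters carry H3K27Ac with H3K4Me3 in place of H3K4Me1, so acetylation without H3K4Me1 is most familiar from gene starts. Large parts of the mouse genome are copies of transposable elements. Intact LINE-1 (L1) elements of the mouse begin with a GC-rich promoter built from tandem units and continue into a short and a long open reading frame. Endogenous retroviruses have promoters of their own in their long terminal repeats. H3K27Me3 is deposited by Polycomb repressive complex PRC2 at silent developmental genes.

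The feature by which the H3K4Me1-free distal stretches differed most from those with H3K4Me1 was repeated sequence. Every 24-base word of a stretch was counted in the assembly, and a word with at least 20 copies was called repeated. Repeated words made up over 50% of the words in 1616 of 3414 H3K4Me1-free distal stretches (47.3%, exact 95% interval 45.6 to 49.0%), against 20 of 7276 distal stretches with H3K4Me1 (0.275%, 0.168 to 0.424%). The near-TSS stretches without H3K4Me1 were in between, with 54 of 647 (8.35%, 6.33 to 10.7%). The value depended on width. It was 85.1% of the stretches up to 2 kb (against 0.556% with H3K4Me1), 23.6% at 2 to 4 kb (against 0.109%), 12.3% at 4 to 6 kb (against 0.184%) and 18.3% over 6 kb (against 0.420%). With lists of equal length it was 28.3%, and with the widest 50% of each H3K27Ac list 14.5%. The median share of repeated words was 42.9% in H3K4Me1-free distal stretches (quartiles 13.3 and 81.6%), against 5.37% in distal stretches with H3K4Me1 and 2.71% near TSSs. The distribution had 2 parts, with 655 stretches under 10% and 554 between 80 and 90%. On all 19 chromosomes the share of stretches over 50% was higher in the H3K4Me1-free class, at 37.6 to 55.3% against 0 to 0.542%. Short reads from such sequence match many places alike, how the authors treated them beyond default Bowtie2 settings is not given in the sources used here, and their effect on which copies were listed was not tested.

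**Figure D1:**
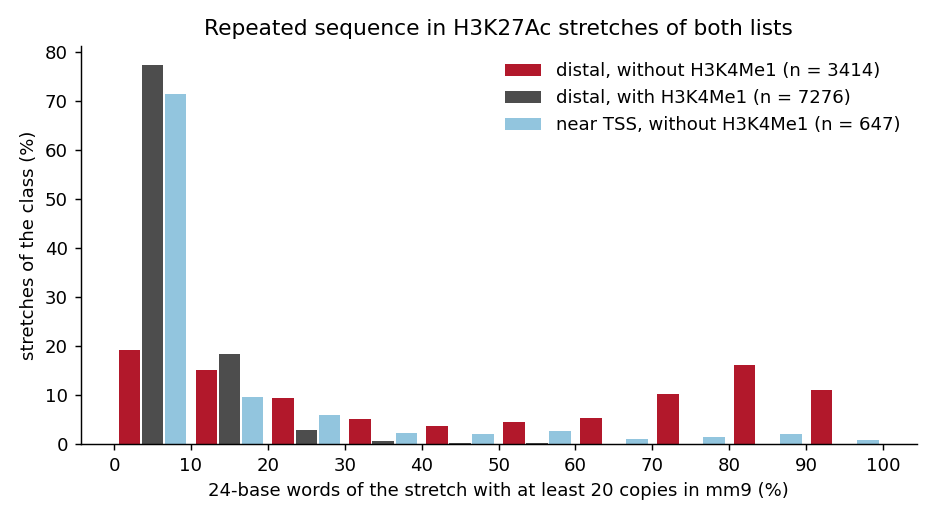
Share of 24-base words with at least 20 copies in mm9 (x axis, bins of 10%) against the percent of stretches of each class (y axis), for distal stretches without H3K4Me1, distal stretches with H3K4Me1 and near-TSS stretches without H3K4Me1. The H3K4Me1-free distal stretches have a second peak from 70% upward, where the distal stretches with H3K4Me1 have none.

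Which repeated sequences these were was found by taking, in turn, the 24-base word held by most remaining H3K4Me1-free distal stretches, provided that under 2% of distal stretches with H3K4Me1 held it, and stopping at words that added fewer than 30 stretches. The 15 words found fell into 11 groups, named A to K by size, which together took in 2475 of the 3414 stretches (72.5%). The same words were in 514 of 7276 distal stretches with H3K4Me1 (7.06%) and in 17.9% of those near TSSs. They were also in 41.8% of distal H3K4Me1-free stretches of the XX list only and 33.2% of those of the XY list only. Because the words were chosen for this difference, the shares are a description. The same search turned round, on distal stretches with H3K4Me1, took in 4278 of 7276 (58.8%) with 25 words. Copies in the genome were counted only for the first 3 of these, which had 20319 to 33689 autosomal copies. Of the 33689 copies of the first word, 16.7% lay in XX and 14.9% in XY H3K27Ac regions. Group A was the largest by far, with 1440 H3K4Me1-free distal stretches (42.2%), 28 distal stretches with H3K4Me1 (0.385%) and 39 near-TSS stretches (6.03%). It was also frequent in distal H3K4Me1-free stretches of 1 list only, with 259 of 1293 in the XX list and 87 of 536 in the XY list.

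The group A word recurred in tandem. Of 3234 gaps of under 1000 bases between neighbouring copies on the same strand, 2754 (85.2%) were 212 bases long, and the next most frequent gap, 214 bases, occurred 165 times. Whole units of 212 bases are shown from 3 of the widest acetylated blocks of group A, so that the unit can be read beside the values. Capitals mark the 24-base word at the start and, where present, the binding motif of YY1, a zinc-finger protein that binds many promoters (AAGATGGC, read here on the opposite strand as GCCATCTT). All are from mm9 and are written 5′ to 3′ in the sense of the word.
Unit 1: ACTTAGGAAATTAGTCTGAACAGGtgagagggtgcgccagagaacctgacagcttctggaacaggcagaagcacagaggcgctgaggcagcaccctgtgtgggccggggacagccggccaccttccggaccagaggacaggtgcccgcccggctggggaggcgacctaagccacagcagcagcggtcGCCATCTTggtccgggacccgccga
Unit 2: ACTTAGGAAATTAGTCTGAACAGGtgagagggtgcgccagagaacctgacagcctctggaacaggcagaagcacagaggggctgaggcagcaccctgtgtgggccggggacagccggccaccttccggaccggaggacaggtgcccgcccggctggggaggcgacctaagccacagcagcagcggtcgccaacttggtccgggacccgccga
Unit 3: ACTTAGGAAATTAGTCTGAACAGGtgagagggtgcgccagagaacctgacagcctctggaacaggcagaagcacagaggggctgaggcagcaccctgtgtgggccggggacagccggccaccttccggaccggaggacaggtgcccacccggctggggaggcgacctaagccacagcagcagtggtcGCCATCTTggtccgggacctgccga
Unit 1 is chr8:53388954-53389165 on the plus strand, in a stretch of 5399 bases acetylated over 5399 bases in XX and 5399 bases in XY, which holds 24 copies of the word. Unit 2 is chr14:42112074-42112285 on the minus strand, in a stretch acetylated over 5199 bases in XX and 5399 bases in XY. Unit 3 is chr4:40543412-40543623 on the plus strand, in a stretch acetylated over 4199 bases in XX and 4399 bases in XY. All 3 lie between genes, nearest to Aga, Gm2832 and Aptx, at 1202880, 19506 and 96140 bases from a TSS. Unit 2 matched unit 1 at 208 and unit 3 matched it at 206 of 212 positions. They contained 13, 13 and 10 CpG dinucleotides, and GC made up 65.1, 66.0 and 64.6% of their bases.

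The mark and the layout around group A were described at all autosomal copies of the word, acetylated or not, and because the word was chosen from acetylated stretches without H3K4Me1, the shares of both marks are a description. The word had 6105 copies, which formed 2837 loci when copies within 10 kb were joined, and at 2823 of them all copies lay on the same strand. Downstream of the last copy, 2272 of these 2823 loci (80.5%) had an open reading frame of at least 300 codons within 2500 bases, most often of 371 codons. A frame of at least 1000 codons within 8000 bases was present at 1614 loci (57.2%), most often of 1281 codons. Upstream of the copies, the same search on the same strand found 39 (1.38%) and 16 loci (0.567%). This order of tandem units, a short frame and a long frame is that of the L1 elements described above. No repeat annotation was used, so the copies were not assigned to an L1 subfamily.

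H3K27Ac at these loci was concentrated in a narrow peak over the units in both lists. At the last unit, 59.0% of loci lay inside an XX and 53.8% inside an XY H3K27Ac region. At 2000 bases upstream the shares were 3.05% in XX and 2.94% in XY, and at 2000 bases downstream 0.0708% in XX and 0% in XY. H3K4Me1 covered at most 1.56% of loci in XX and 1.74% in XY anywhere from 8000 bases upstream to 10000 bases downstream, and H3K27Me3 at most 0.602% in each. All 3 marks were lowest over the reading frames downstream. Whether reads could be placed there was not tested.

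**Figure D2:**
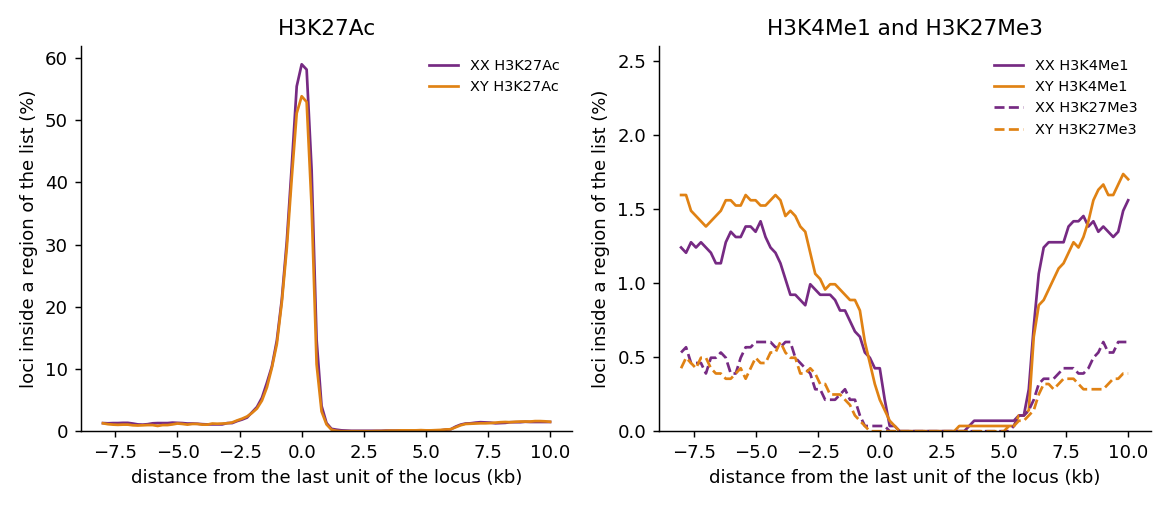
Percent of the 2823 group A loci inside a region of each list (y axis) against the distance from the last unit, in kb, with the reading frames to the right (x axis). H3K27Ac is on the left, XX in purple and XY in orange, and H3K4Me1 (solid) and H3K27Me3 (dashed) are on the right on an expanded scale. H3K27Ac reaches 59.0% in XX and 53.8% in XY at the last unit and is near 0 at 2 kb downstream.

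Loci with more units were listed more often. Units were counted by exact copies of the word, which was chosen from acetylated stretches, so diverged units were not counted. Of 1325 loci with 1 copy of the word, 25.5% overlapped an XX H3K27Ac region (exact 95% interval 23.2 to 27.9%) and 20.2% an XY region (18.1 to 22.5%). The shares were 78.1% in XX and 70.3% in XY for the 688 loci with 2 copies, and 96.6% in XX and 92.1% in XY for the 379 loci with 3 copies. With 4 copies they were 99.1% in XX and 97.7% in XY, over 219 loci. Of 226 loci with 5 or more copies, 225 were listed in XX and 225 in XY (99.6% each). The list was also read at the last copy alone, so that a longer array had no more bases to meet a region. This gave 25.5, 77.9, 95.8, 98.6 and 98.2% in XX and 20.2, 70.2, 91.3, 97.3 and 97.3% in XY. Nearly every listed locus was also listed at its last copy (in XX 536 of 537 with 2 copies and 363 of 366 with 3 copies). This reading therefore does not remove an effect of array length on whether a region was listed, which was not tested.

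**Figure D3:**
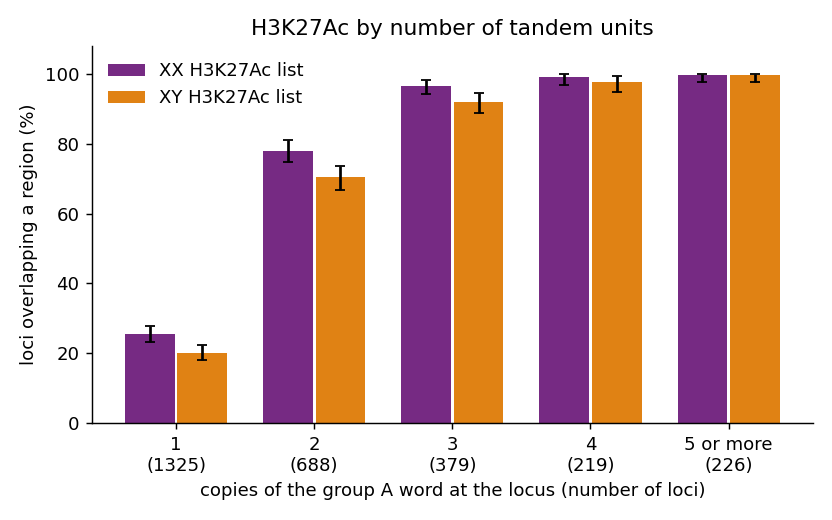
Percent of group A loci that overlap an H3K27Ac region (y axis) by the number of copies of the group A word at the locus, with the number of loci in brackets (x axis), in the XX list (purple) and the XY list (orange). Bars are exact binomial 95% intervals, and the share goes up from 25.5% in XX and 20.2% in XY at 1 copy to 99.6% in each at 5 or more copies.

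The other groups were smaller and of a different base composition. Group B took in 255 H3K4Me1-free distal stretches (7.47%), group C 226 (6.62%), group D 212 (6.21%) and group E 98 (2.87%). Of distal stretches with H3K4Me1, 0.412% held a word of group B, 1.53% of group C, 1.26% of group D and 0.783% of group E. Groups F to K took in 44 to 73 each. The group K word was in 1.29% of H3K4Me1-free distal stretches and 1.26% of those with H3K4Me1, nearly the same share. No pair of groups shared more than 10 stretches. Example stretches of 100 bases are shown for groups B to E, in mm9, with the 24-base word in capitals, because they let the sequence be looked up.
Group B: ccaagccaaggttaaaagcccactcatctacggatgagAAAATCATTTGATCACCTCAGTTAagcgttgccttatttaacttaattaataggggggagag
Group C: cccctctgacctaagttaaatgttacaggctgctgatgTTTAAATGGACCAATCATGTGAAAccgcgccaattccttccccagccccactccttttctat
Group D: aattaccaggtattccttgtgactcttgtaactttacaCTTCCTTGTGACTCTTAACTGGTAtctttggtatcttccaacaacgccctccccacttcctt
Group E: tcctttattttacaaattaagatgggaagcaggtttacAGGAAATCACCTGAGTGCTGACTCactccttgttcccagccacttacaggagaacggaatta
The example of group B is chr16:25522480-25522579 on the plus strand, 157649 bases from a TSS of Trp63, a p53 relative of epithelia, in a stretch acetylated over 10399 bases in XX and 11799 bases in XY. That of group C is chr9:25663003-25663102 on the minus strand, in a stretch acetylated over 9999 bases in XX and 9199 bases in XY. That of group D is chr5:32883300-32883399 on the minus strand, in a stretch acetylated over 10399 bases in XX and 9799 bases in XY that overlaps an exon of Gm15614. That of group E is chr7:59982065-59982164 on the minus strand, in a stretch acetylated over 10199 bases in XX and 10999 bases in XY. The median width of the stretches was 4599 bases in group B, 3199 in group C, 4399 in group D and 4499 in group E, against 1199 bases in group A. Median GC was 43.3, 44.0, 43.8 and 41.5% in groups B to E, against 58.6% in group A.

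The words were chosen from stretches with H3K27Ac and without H3K4Me1, so an excess of H3K27Ac over H3K4Me1 at their loci in large part restates the choice, and the shares are given as a description. They were counted at all autosomal loci of the words, acetylated or not. Of 3518 loci of the 2 group A words together, 50.3% overlapped XX and 45.2% overlapped XY H3K27Ac, and 0.426% overlapped H3K4Me1 in each list. Of 476 loci of group B, 73.7% overlapped XX and 70.4% overlapped XY H3K27Ac, with H3K4Me1 at 4.41% in XX and 5.25% in XY. Group C had 61.4% in XX and 52.9% in XY over 814 loci, and group D 58.9% in XX and 56.4% in XY over 738 loci. Group J had H3K4Me1 at 46 of its 210 loci in XX and 63 of them in XY. Group K had H3K27Ac at 2.31% of its 9448 loci in XX and 2.06% in XY. Loci listed in XX only outnumbered those listed in XY only in groups A (275 against 96), B (34 against 18), C (97 against 28) and D (51 against 32). They also did in groups E (64 against 10), G (24 against 2), J (34 against 2) and K (71 against 48). Group H had 7 of each, group I had 7 against 8 and group F had 2 against 11. Counted in another unit, as whole distal H3K4Me1-free stretches and not as loci of words, 1293 were in XX only against 536 in XY only. The XX list was the longer one, with 27785 regions on these chromosomes against 25301 in XY. Of all merged stretches 73.2% were in both lists, and the split of the rest between XX only and XY only is not given here. Nothing particular to the word groups is therefore read from these counts.

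**Figure D4:**
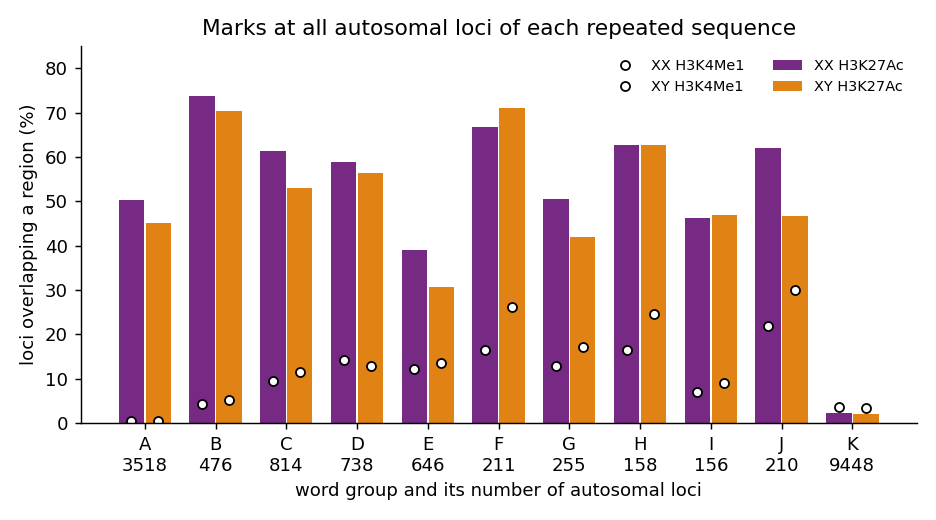
Percent of the autosomal loci of each word group (y axis) that overlap H3K27Ac (bars) or H3K4Me1 (open circles), in XX (purple, left) and XY (orange, right), for groups A to K with their number of loci (x axis). Group A has H3K4Me1 at 0.426% of loci in each list. The words were chosen from stretches with H3K27Ac and without H3K4Me1, so the distance between bars and circles is not a finding.

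The stretches of group A were narrow. Their median width was 1199 bases (quartiles 999 and 1799), against 4199 bases in the 1035 stretches of other groups and 3599 bases in the 939 stretches of no group. All 3414 H3K4Me1-free distal stretches had a median width of 2599 bases (range 399 to 15599), against 5599 bases (399 to 58199) in distal stretches with H3K4Me1 and 2399 bases near TSSs. A wider stretch has more room for an H3K4Me1 region, so the rule itself favours narrow ones. Of the stretches up to 2 kb wide, 1256 of 1453 (86.4%) belonged to group A, against 3 of 180 (1.67%) with H3K4Me1. Of those over 6 kb wide, 5 of 295 did (1.69%), against 7 of 3096 (0.226%). With only the widest 50% of each H3K27Ac list, 608 stretches met the rule and 1.32% of them were of group A, and with lists of equal length, from which the narrowest regions of the longer list drop out, group A made up 20.2% of 2366.

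H3K27Me3 was rare at the H3K4Me1-free distal stretches. It overlapped 21 of 3414 in the XX list (0.615%) and 18 in the XY list (0.527%), against 13.8% in XX and 11.9% in XY of distal stretches with H3K4Me1, and 13.1% in XX and 11.0% in XY near TSSs. Over all 21475 stretches in both lists the shares were 17.4% in XX and 14.5% in XY, and 20.5% in either list. In either list it overlapped 30 of 3414 (0.879%, exact 95% interval 0.594 to 1.25%), against 1248 of 7276 (17.2%) and 15.6% of the 647 near TSSs (12.9 to 18.6%). Distal H3K4Me1-free stretches of 1 list only were also low, at 38 of 1293 in XX only (2.94%) and 9 of 536 in XY only (1.68%). A low share was therefore not particular to stretches in both lists. The difference between the 3414 stretches and the distal stretches with H3K4Me1 was present at every width. Up to 2 kb the shares were 0.619% against 25.6% with H3K4Me1, and over 6 kb 1.36% against 17.3%. It was also present on all 19 chromosomes, at 0 to 2.94% against 10.6 to 22.1%. Group A had 5 of 1440 with H3K27Me3 (0.347%), and the stretches of no group had 15 of 939 (1.60%). The median share of repeated words in the stretches of no group was 9.19%, against 5.37% in distal stretches with H3K4Me1. Whether repeated sequence bears on these shares was not tested.

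**Figure D5:**
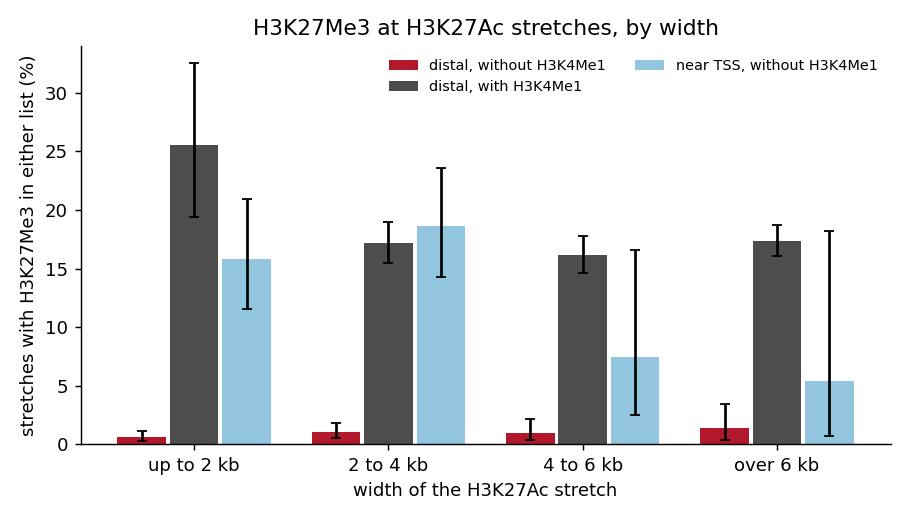
Percent of stretches with H3K27Me3 in either list (y axis) by width of the H3K27Ac stretch (x axis), for distal stretches without H3K4Me1, distal stretches with H3K4Me1 and near-TSS stretches without H3K4Me1, with exact binomial 95% intervals. The H3K4Me1-free distal stretches stay at 0.619 to 1.36% in all 4 width classes.

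Of the 30 stretches with H3K27Me3, 12 had it in the XX list only, 9 in the XY list only and 9 in both. The widest with H3K27Me3 in XX only was chr14:43945601-43958199, which overlaps the pseudogene Gm17153 and holds 4199 bases of H3K27Me3 in XX. The next, chr4:88578801-88589199, lies 52695 bases from a TSS of Ifne, an interferon gene, and holds 2999 bases in XX. The widest with H3K27Me3 in XY only was chr7:39180601-39186399, near Pop4, a subunit of RNase P, with 2599 bases in XY. The widest in both was chr4:146646601-146652599, covered over 5999 bases in XX and 5999 bases in XY, and it overlaps the pseudogene Gm13135. At chr9:122189201-122192799, in an intron of Ano10, a member of the anoctamin membrane protein family, H3K27Me3 covered 3599 bases in XX and 2599 bases in XY.

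Acetylation covered about as many bases of these stretches in XX as in XY. The median was 2199 acetylated bases in XX (quartiles 1199 and 3599) and 2199 bases in XY (1199 and 3599). The XX list covered more bases in 1327 stretches, the XY list in 1430, and both the same number in 657. The XX bases were at least 1.5 times the XY bases in 323 stretches (9.46%), against 10.2% of all stretches in both lists. The XY bases were at least 1.5 times the XX bases in 379 (11.1%), against 11.3% of all. Both shares are near those of all stretches. With lists of equal length the order of the shares turned, to 11.2% higher in XX and 9.43% higher in XY.

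The largest ratio of XX to XY bases was at chr1:47160201-47163399, with 3199 acetylated bases in XX and 599 bases in XY, 249309 bases from a TSS of Slc39a10, a zinc transporter gene. It was followed by chr16:42498401-42503599, with 5199 bases in XX and 1199 bases in XY, near Gap43, which encodes a growth cone protein. The others of the 5 largest ratios had 1599 bases in XX against 399 in XY, 3199 against 799, and 10399 against 2799. The smallest ratio was at chr5:59330201-59335399, with 999 bases in XX and 5199 bases in XY, and the same gene, the protocadherin Pcdh7, was nearest to another of the 5 smallest, with 999 bases in XX and 3599 bases in XY. Within the granzyme gene Gzmk, a stretch had 599 bases in XX and 2199 bases in XY. None of these 10 stretches carried H3K27Me3 in either list. Only 0.879% of all 3414 did, so nothing particular to the 10 is read from this.

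The 10 longest blocks acetylated in both lists were 9199 to 13199 bases long, and 8 of the 10 lay between genes. The longest was in chr6:37688001-37702399, with 14399 acetylated bases in XX and 13199 bases in XY, 118411 bases from a TSS of Trim24, a chromatin-reading transcriptional co-regulator. The second, chr1:7109601-7121599, overlaps an exon of Pcmtd1 and had 11999 bases in XX and 11799 bases in XY. Others lay near Birc2, an inhibitor of apoptosis (9599 bases in XX and 10399 bases in XY), near Mlph, which takes part in melanosome transport (9399 bases in XX and 9399 bases in XY), and in C7, a complement component (9399 bases in XX and 9999 bases in XY). The interval chr6:37688001-37778999 by Trim24 was also 1 of 3 places with 5 stretches within 100 kb, and 0 of its 5 were of group A. The others with 5 were chr10:32660801-32708999 near Nkain2 and chr11:28006801-28090199 near Gm6685.

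The H3K4Me1-free distal stretches lay mostly outside genes. Between genes lay 2598 of 3414 (76.1%, exact 95% interval 74.6 to 77.5%), against 44.4% of distal stretches with H3K4Me1 (43.2 to 45.5%). In introns lay 18.2% against 27.6%, and an exon was overlapped by 5.71% against 28.0%. A protein-coding gene was overlapped by 20.4% against 48.0%. Distal H3K4Me1-free stretches of 1 list only also lay mostly between genes, at 71.4% in XX only and 68.8% in XY only. Any overlap of a stretch counted, and the median width of the 3414 was 2599 bases, against 5599 bases with H3K4Me1. Wider stretches have more room to meet a gene, an exon or a TSS, and position was not compared within classes of width. The distance to the nearest protein-coding TSS, which the rule used only as a minimum, had a median of 90001 bases, against 25449 bases with H3K4Me1, and 136856 bases in group A. The nearest H3K4Me1 region of either list was at a median of 101301 bases, and 251 stretches (7.35%) had H3K4Me1 within 5 kb. A TSS of a gene that is not protein-coding lay in 70 stretches (2.05%, 1.60 to 2.58%), against 506 of 7276 (6.95%, 6.38 to 7.56%) with H3K4Me1 and 8.66% near protein-coding TSSs. There were 55 stretches on chromosome 19 and 307 on chromosome 1, or 8.97 per 10 Mb on chromosome 19 and up to 16.2 per 10 Mb on chromosome 10.

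Just inside the distance limit were chr6:48701201-48707399, 5002 bases from a TSS of Gimap5, and chr10:31045001-31050399, 5027 bases from a TSS of Hddc2. Just outside were stretches 4995 bases from a TSS of Ccdc62 and 4968 bases from a TSS of Fam71b. On the side of H3K4Me1, 6 stretches lay 1 base from an H3K4Me1 region, which is the smallest gap the coordinates allow, and 5 distal stretches were left out for an overlap of at most 200 bases.

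Motifs were searched on both strands in the 1000 bases centred on the longest block acetylated in both lists. GC and CpG of stretches were taken from the same window. It reaches past blocks shorter than 1000 bases, and past some whole stretches of group A, whose first quartile of width was 999 bases. A match is a run of letters and not a measured site. The YY1 motif was in 45.5% of H3K4Me1-free distal stretches, against 6.51% of distal stretches with H3K4Me1 and 14.5% near TSSs. It was in 97.7% of group A, where units 1 and 3 above carry it and unit 2 does not, and in 7.88% of stretches of no group. The Sox motif (CATTGT) was in 29.2% against 44.0% with H3K4Me1, the Klf motif (GGGNGTGG) in 15.6% against 38.7%, and the Esrrb motif (TCAAGGTCA) in 1.41% against 3.74%. Sox2, Klf4 and Esrrb are transcription factors of the ES cell network. The octamer (ATGCAAAT), bound by Oct4 and other POU factors, went the other way, at 9.72% against 7.45%. Stretches of no group held the Sox motif at 47.9%, the Klf motif at 28.0% and the Esrrb motif at 3.30%. In stretches of groups B to K the octamer was in 23.4%, against 7.45% with H3K4Me1, and the TATA motif (TATAAAA) in 35.4% against 21.8%. The p53 motif (CATGTCC) was in 24.6% of them against 11.3%, and the NF-Y motif (CCAATCA) in 21.7% against 12.7%. The Sox, Klf and Esrrb motifs were lower there than with H3K4Me1, at 40.9, 21.6 and 1.45%. The group C word shown above itself contains CCAATCA, so the NF-Y share of groups B to K in part restates how they were formed. Stretches of no group held the octamer at 7.99%, the TATA motif at 31.5%, the p53 motif at 12.9% and the NF-Y motif at 19.4%. The TATA and NF-Y shares were therefore not particular to groups B to K. CpG observed over expected had a median of 0.374 in all H3K4Me1-free distal stretches, against 0.211 with H3K4Me1. It was 0.524 in group A and 0.166 in stretches of no group.

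The gene lists were set beside all genes. Of 21281 autosomal protein-coding genes, 17.7% had at least 1 within 100 kb of a TSS and 10.3% were the nearest gene of at least 1. Of 35 annotated pluripotency regulators, 5 had 1 within 100 kb (14.3%) and 5 were the nearest gene (14.3%). Of 59 Polycomb-bound developmental regulators, 6 had 1 within 100 kb (10.2%), and of 30 cardiac transcription factors 5 did (16.7%). Of 49 chromatin enzymes and readers 7 did (14.3%), of 27 housekeeping genes 4 (14.8%), and of 18 fibroblast markers 3 (16.7%). Of the regulators named as higher in XX ES cells 0 of 18 did, and of those higher in XY ES cells 3 of 44 (6.82%). By this measure all 8 lists were below the 17.7% of all genes. By nearest gene, 5 lists were above the 10.3% of all genes and 3 below. Above it were the cardiac transcription factors (6 of 30), fibroblast markers (3 of 18), pluripotency regulators (5 of 35), Polycomb-bound regulators (7 of 59) and regulators higher in XX (2 of 18). Below it were the chromatin enzymes (4 of 49), regulators higher in XY (3 of 44) and housekeeping genes (0 of 27). The counts are small, the measures differ in direction, and nothing particular to a list is read from them.

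Of the 44 stretches nearest to a listed gene, 29 held a group A word (65.9%, exact 95% interval 50.1 to 79.5%), against 42.2% of all 3414. Several of the 44 share a nearest gene, so they are not independent, and the interval does not allow for that. Of group A, 57.6% lay over 100 kb from a protein-coding TSS, against 47.3% of all. Whether clustering or distance bears on the 65.9% was not tested, and no enrichment near listed genes is read from it. Near Sox2, a core pluripotency factor, the stretch chr3:35029201-35033399 lay 480142 bases from the TSS, with 2199 acetylated bases in XX and 4199 bases in XY, and held a group A word. Near Nr5a2, a nuclear receptor of pluripotent cells, chr1:138947001-138950599 had 2999 bases in XX and 3399 bases in XY and belonged to no group. A second one near it, chr1:139241201-139242199, was of group A, with 999 bases in XX and 999 bases in XY. Zfp42, an ES cell zinc-finger gene, had a group E stretch at 44637 bases, with 3199 bases in XX and 4199 bases in XY. Hand2, a cardiac transcription factor, was nearest to 4 stretches, all of group A, at 137180 to 377180 bases. Near Chd7, a chromatin remodeler, chr4:8573401-8575599 had 2199 acetylated bases in XX and 1599 bases in XY, and was the only stretch nearest to a listed gene that also carried H3K27Me3, in both lists.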

How the data were processed

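The deposited files are 6 BED lists of enriched regions, 1 per sex and mark, whose other values are start and end coordinates in base pairs without counts, scores or signal. The authors aligned short single-end reads to mm9 with Bowtie2 and used Bedtools. Bowtie, deepTools and mm9 are listed in the submitters' processing notes. Not given in the sources used here are the region caller, its threshold, its use of IgG and input, the way lines were combined and the handling of reads with several matches. Region starts are multiples of 200 bp.

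Genes were those of GENCODE M1 on NCBIM37, the same assembly as mm9. Stretches were merged on chromosomes 1 to 19 and classed with NumPy 2.4.6 and pandas 2.3.3, and counts were checked against Bedtools 2.31.1 (4 of 4 equal). The interval, copy and word routines were also tested on planted data. Exact binomial 95% intervals came from SciPy 1.17.1. Word copies were counted over the assembly on both strands in a hashed table whose counts stop at a ceiling above the thresholds used here. A count below that ceiling is an upper bound. Autosomal copies of the group words were found by direct search. The 23 motifs were CTCF, CTCF core (AGGGGGCGC), octamer (ATGCAAAT), Sox (CATTGT), Klf (GGGNGTGG), Esrrb (TCAAGGTCA), Nr5a2 (TGACCTTG), Stat3 (TTCCNGGAA), Prdm14 (GGTCTCTAA), Tead (ACATTCCA), AP-1 (TGACTCA), E-box (CACGTG), ETS (CCGGAAGT), CRE (TGACGTCA), YY1 (AAGATGGC), NF-Y (CCAATCA), Sp1 (GGGGCGGGG), TBP or TATA-box (TATAAAA), p53 (CATGTCC), Rest (TTCAGCACC), Nrf1, Zfp143 and Rfx. The regions named were the 10 longest blocks in both lists, the 5 largest and 5 smallest ratios of XX to XY bases, the 2 nearest to each limit of the rule on either side, the widest with H3K27Me3, the densest groups within 100 kb and those nearest to listed genes. The stretches and gene lists were chosen with earlier results of these data known, and the words, word groups, copy thresholds and unit loci after seeing the data. Regions outside chromosomes 1 to 19 were not used, which left 27785 XX and 25301 XY H3K27Ac, 38822 XX and 34459 XY H3K4Me1, and 18270 XX and 14977 XY H3K27Me3 regions.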

Additional observations from a re-analysis of the deposited data

How the results depend on the processing

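The number of H3K4Me1-free distal stretches was within 1.5 times of 3414 under 8 of 10 alternatives, among them a TSS limit of 2 or 10 kb (3529 and 3171), H3K4Me1 excluded within 5 kb (3163) and lists of equal length (2366). With the widest 50% of each H3K27Ac list there were 608 stretches, of which 1.32% had H3K27Me3, 78.0% lay between genes and 7.24% held the YY1 motif. Their median width was 5799 bases and 8 listed genes had 1 within 100 kb, against 32 in all. This alternative keeps only wide regions by construction. Lists of equal length gave a median width of 3599 bases and the YY1 motif in 24.9%. With TSSs of all annotated genes, 77.7% lay between genes. With no H3K4Me1 within 5 kb the YY1 motif was in 47.8%, and in the central 500 bases in 42.9%. H3K27Me3 covered at least 50% of the stretch in 0.381%, against 7.71% of distal stretches with H3K4Me1, and was in 1.36% of those over 6 kb wide. Without group A, an alternative chosen after seeing the data, 1974 stretches remained by construction, with H3K27Me3 at 1.27%, a median width of 3799 bases and the YY1 motif in 7.40%. Over 50% of the words were repeated in 13.1% of those, and in 52.9% and 42.0% of all 3414 with a minimum of 5 or 100 copies. Under all 15 alternatives the share with H3K27Me3 was 0.381 to 1.36%. No paired analysis was possible because each sex and mark has 1 list, with no line named. The cause of these shifts was otherwise not tested. The depth of the libraries is unknown, so an unlisted copy may only have fallen under the threshold of the caller, and the reference is of C57BL/6, so copies that differ in CAST/EiJ were not seen.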
